A study of Mus musculus with 11 samples.

Results

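Collagens are the triple-helical proteins of the extracellular matrix, and 37 of the 42 collagen genes that had a named probe on the array were measured here in mouse cortex. A gene was a member if its symbol was of the collagen alpha-chain form and if its probe was well above background, by the scanner software's own flag, in at least 5 of the 22 channels. The symbol came from RefSeq through the probe's accession, and the brightest such probe stood for the gene. The 37 members comprised 11 fibrillar, 5 basement membrane network, 4 beaded filament, 8 fibril-associated, 2 short-chain network and 3 transmembrane collagens, and 4 of other kinds. Among genes close to that minimum, Col6a5 with 7 channels, Col15a1 with 9 and Col17a1 with 9 were just inside, and Col4a3 and Col10a1 with 2 each were just outside. Col13a1, Col28a1 and Col6a6 were flagged in 0 channels. Col6a3, Col12a1 and Col21a1 had no matched probe and were not used here.

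The arrays compared 4 groups of C57/Bl6J mice aged 5 to 7 months, all sampled from the right hemisphere cortex. WT mice were wild type and uninjured (6 mice). T mice carried the transgenes GFA2-tTa and TetO-VP16-CREB and were uninjured (5 mice); in them an always-active CREB, a transcription factor, is made in astrocytes, the cells in which the GFA2 promoter is active. WTC were wild-type mice (5) and TC were transgenic mice (6) whose brain surface had been frozen by a dry ice pellet for 30 s, a cryolesion, with tissue taken 3 days later. Each of 11 arrays carried 2 mice, 1 in red (Cy5) and 1 in green (Cy3), and each mouse was on 1 array. On 3 arrays (T151 with TC113, TC107 with T132 and WTC126 with TC124) the label of the green channel named another group than the title, and the title was used. All 6 WT mice were on slide 1, together with 3 T, 2 WTC and 1 TC mouse, and slide 2 held the other 2 T, 3 WTC and 5 TC mice. The study asked what CREB activation in astrocytes does to the cortical response to acute injury.

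Fibrillar collagens such as types I, III and V form the tensile fibrils of skin, bone and scar. Type IV chains form the sheet-like network of basement membranes, including those around brain vessels and beneath the meninges. Type VI chains form beaded filaments near cells, fibril-associated collagens decorate fibrils, and multiplexins such as Col18a1, the source of the fragment endostatin, sit in vascular and epithelial basement membranes. In healthy brain, fibrillar collagen is largely limited to meninges and vessel walls, and after injury fibroblasts and other cells of these layers deposit it in the scar. All values below are from RNA of bulk tissue, in which fewer cells of a type and less RNA per cell cannot be told apart.

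Between 56.6% and 65.3% of probes were well above background in a channel. Creb1 itself was at 8.18 ± 0.15 (SD, n = 6) in WT and 8.35 ± 0.08 (SD, n = 5) in T, on the log2 intensity scale, a difference in the ratio fit of 0.05 ± 0.15 (SE), and whether this probe also reads the transgene is unknown here. Macrophage markers (4 of 5 genes measured) averaged 6.44 to 6.88 in WT and 8.35 to 9.56 in WTC mice, and astrocyte markers (4 of 4) averaged 11.37 to 12.24 and 13.8 to 14.47. Fibroblast and meningeal markers (8 of 8) overlapped, with 8.6 to 9.17 in WT and 8.69 to 9.65 in WTC, as did endothelial markers (6 of 6), with 10.11 to 10.63 and 10.07 to 11.18. Within the fibroblast list genes went both ways, with Fn1 at 10.42 to 11.18 in WT and 11.56 to 13.23 in WTC, and Slc6a13 at 8.99 to 9.81 and 8.33 to 9.28. Ranges also overlapped for pericyte markers, at 9.38 to 9.63 and 9.41 to 10.18, and smooth muscle markers, at 8.74 to 9.63 and 9.28 to 10.45. Single genes of these lists differed too. The pericyte marker Anpep read 9.14 to 9.41 in WT and 9.65 to 11.2 in WTC, and Rgs5 10.2 to 10.59 and 9.63 to 10.28. The smooth muscle marker Tagln read 10.22 to 11.43 and 12.41 to 14.66, and Myh11 6.77 to 7.55 and 6.67 to 7.12. Choroid plexus markers (6 of 6) ran from 9.29 to 14.09 among WT mice and striatal markers (7 of 7) from 9.22 to 12.74, so RNA of the markers of both tissues varied among uninjured samples. Cortical excitatory neuron markers averaged 7.71 in the lesioned mouse TC113, while the 5 remaining TC mice had 10.47 to 11.61. Some counts and the values of some genes are given with and without TC113, and the main results include it.

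The type IV chains lie in head-to-head gene pairs, and the promoter windows of the Col4a1 and Col4a2 pair and of the Col4a5 and Col4a6 pair are shown because both chains of each were members. Col4a3, the partner of the member Col4a4, was outside the detection rule. RefSeq windows of 300 bases (250 before the annotated start and 50 after it, build GRCm38.p6) were on hand for 30 of the 37 members. For Col4a1 (chr8:11312777-11313076, minus strand) and Col4a2 (chr8:11312555-11312854, plus strand) the starts lie 21 bases apart. The start of Col4a1 has the higher coordinate, so the annotated transcripts overlap at their starts and leave no gap. Capitals mark the 78 bases that both windows share.
Col4a1: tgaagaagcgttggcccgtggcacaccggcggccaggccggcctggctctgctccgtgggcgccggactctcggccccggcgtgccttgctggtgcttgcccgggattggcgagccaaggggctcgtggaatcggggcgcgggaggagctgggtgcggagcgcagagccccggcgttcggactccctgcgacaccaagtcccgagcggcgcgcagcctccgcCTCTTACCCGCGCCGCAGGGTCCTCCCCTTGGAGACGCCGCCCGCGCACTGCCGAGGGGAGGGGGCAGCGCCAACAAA
Col4a2: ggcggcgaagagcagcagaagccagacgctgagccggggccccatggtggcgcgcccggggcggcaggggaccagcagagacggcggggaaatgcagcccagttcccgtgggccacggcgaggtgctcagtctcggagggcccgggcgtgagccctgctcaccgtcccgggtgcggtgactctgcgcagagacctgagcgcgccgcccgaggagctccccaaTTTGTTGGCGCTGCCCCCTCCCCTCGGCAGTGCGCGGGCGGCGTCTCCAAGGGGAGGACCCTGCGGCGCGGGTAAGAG
Col4a6 (chrX:141474027-141474326, minus strand) and Col4a5 (chrX:141475169-141475468, plus strand) are read away from each other from starts 1343 bases apart, and their windows do not touch. In these windows capitals mark CCAAT and GGGCGG, or their reverse complements ATTGG and CCGCCC.
Col4a6: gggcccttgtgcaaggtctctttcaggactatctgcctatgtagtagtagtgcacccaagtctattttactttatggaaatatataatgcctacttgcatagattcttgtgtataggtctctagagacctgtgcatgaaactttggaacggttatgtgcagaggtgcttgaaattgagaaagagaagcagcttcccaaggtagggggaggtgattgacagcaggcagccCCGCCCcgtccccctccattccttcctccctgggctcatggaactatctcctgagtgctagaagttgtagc
Col4a5: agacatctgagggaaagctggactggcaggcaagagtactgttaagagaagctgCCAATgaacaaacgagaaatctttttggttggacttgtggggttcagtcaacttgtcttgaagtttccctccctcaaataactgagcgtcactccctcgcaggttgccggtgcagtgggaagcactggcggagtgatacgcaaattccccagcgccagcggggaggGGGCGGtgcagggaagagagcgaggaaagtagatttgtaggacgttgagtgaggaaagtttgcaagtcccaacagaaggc
All 4 windows hold GGGCGG, the GC box, on one strand or the other, and 3 of them, the exception being Col4a6, hold CCAAT. The only GGGCGG match of Col4a1 lies in the bases shared with Col4a2, so the same site counts for both members. Over the members, GGGCGG was in the windows of 21 of 30 (70%), against 38.2% of 27025 genes, and CCAAT in those of 13 of 30 (43.3%), against 41.1%. TATAAA was in 3 of 30 (10%), Col3a1 among them, against 15.7%. The full palindrome that CREB binds, TGACGTCA, was in 1 of 30 (3.3%), that of Col24a1, against 2% of all genes. Its 5-base core TGACG, which the palindrome contains, was in 4 of 30 (13.3%), Col4a5, Col7a1, Col11a2 and Col24a1, against 23%. Both strands were searched, a match is a description of letters only, and no match says nothing about binding elsewhere.

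In wild-type mice, 7 of 11 fibrillar and 4 of 5 basement membrane network collagens were called higher 3 days after the lesion in one of the fits used, the channel fit, and none in the other, the ratio fit. Of 37 members, 27 had a positive log2 ratio of WTC over WT, with a median of 0.43, while over all 25998 features tested the median was 0. The ratio fit, a limma fit to the ratio within each array, called 0 members in either direction at an adjusted p (Benjamini-Hochberg over all features) under 0.05, where 0.0231% of all features were called higher and 0% lower. At an unadjusted p under 0.05 it gave 15 members higher and 0 lower, where the same held for 12.6% and 6.91% of all features. The channel fit, which uses each mouse's own channel with the array as a random block and so has 17 residual degrees of freedom in place of 7, called 15 members higher and 1 lower at an adjusted p under 0.05, against 14.2% and 12.3% of all features. All 6 WT mice were on slide 1 and 3 of 5 WTC mice on slide 2, and with a slide term, added after seeing the data, the channel fit called 12 members higher and 0 lower, where 13.1% of all features were called in either direction. In 11 members every WTC mouse was above every WT mouse, which held for 9.09% of all features, and in 0 members every WTC mouse was below, against 7.2%. The members called in the channel fit made up 40.5% of the 37 on the higher side and 2.7% on the lower side.

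**Figure D1:**
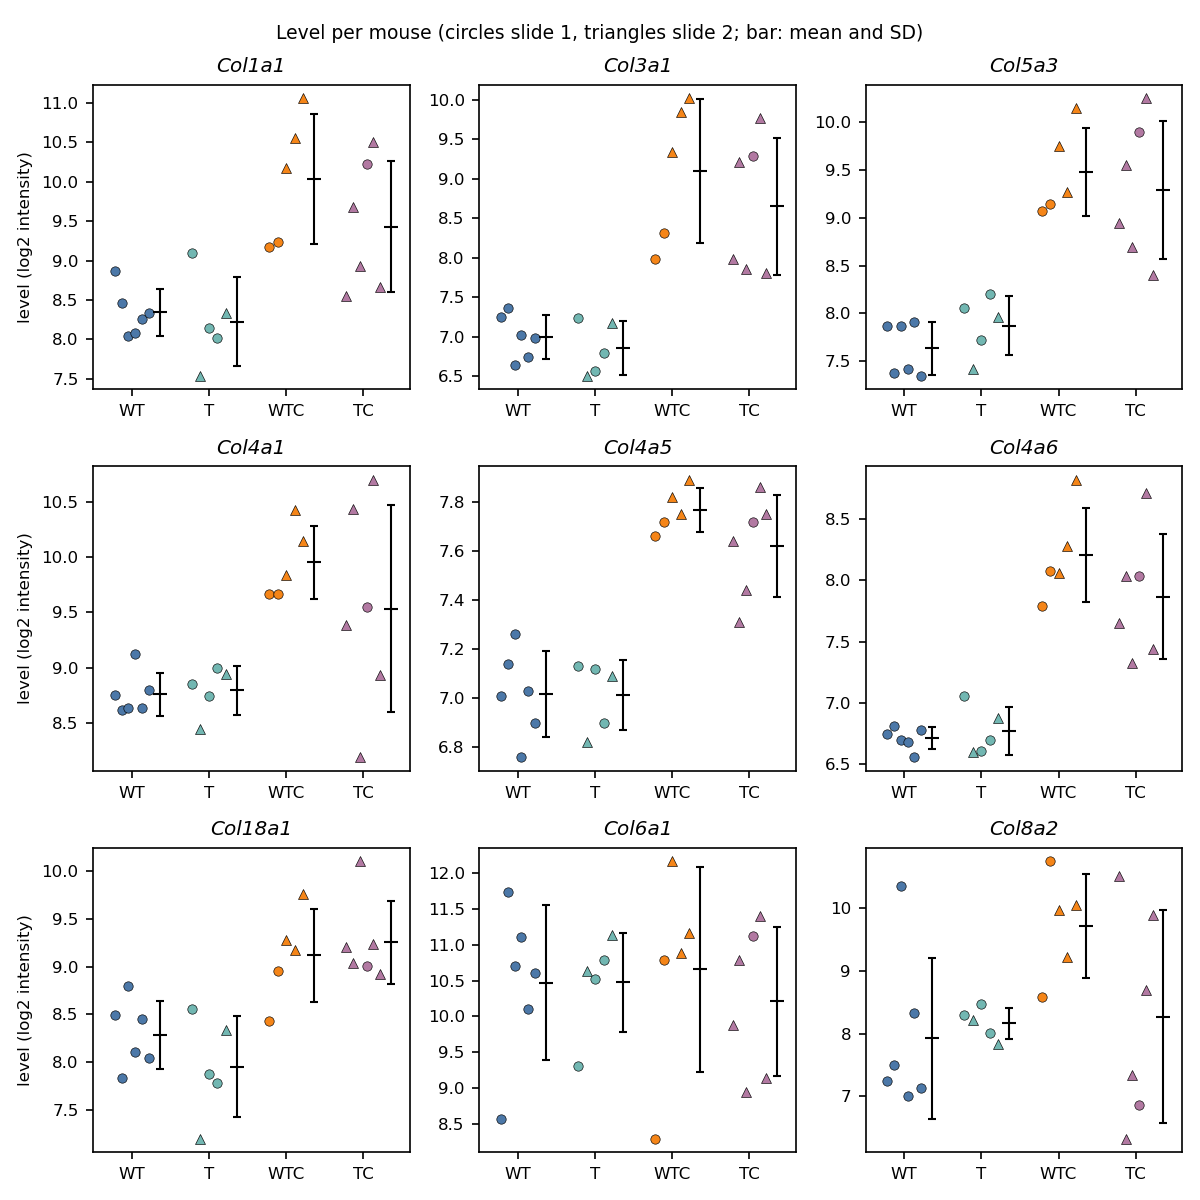
Level of 9 collagen genes in each of the 22 mice (vertical axis, log2 intensity after normalisation within and between arrays and removal of the dye effect) by group; circles are mice on slide 1, triangles mice on slide 2, and the bar shows mean and SD. Col5a3, Col3a1, Col4a5 and Col4a6 of all lesioned mice lie above those of all intact mice of the same genotype, whereas Col6a1 runs from 8.3 to 12.16 in WTC and Col8a2 from 6.33 to 10.51 in TC mice, and Col8a2 only from 7.83 to 8.47 in T mice.

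Among fibrillar collagens, 9 of 11 had a positive ratio, with a median of 0.63. Col5a3, the alpha-3 chain of the fibril-regulating type V, read 7.87, 7.38, 7.87, 7.42, 7.91 and 7.35 in the 6 WT mice and 9.07, 9.14, 9.75, 9.27 and 10.15 in the 5 WTC mice. The lowest WTC mouse lay well above the highest WT mouse. Its log2 ratio was 1.77 ± 0.31 (SE), a 3.4-fold level, with an adjusted p of 0.076 in the ratio fit and 0.00023 in the channel fit. Col3a1, which forms the fine reticular fibrils of early repair tissue, read 6.64 to 7.36 (median 7) in WT and 7.98, 8.32, 9.34, 9.85 and 10.02 in WTC. The 2 lowest WTC values belonged to the 2 WTC mice on slide 1, and they still lay above every WT mouse. The ratio was 1.52 ± 0.44 (adjusted p = 0.13; channel fit 0.0014), and on the arrays of slide 1 alone, with 2 residual degrees of freedom and so as a value without a test, it was 1.01. Col1a1, the main chain of type I, read 8.04 to 8.87 (median 8.3) in WT, 9.17 and 9.24 in the WTC mice of slide 1 and 10.17, 10.56 and 11.06 in those of slide 2. Its ratio was 1.35 ± 0.46 (adjusted p = 0.16; channel fit 0.0047) and 0.73 on slide 1 alone. Its partner chain Col1a2 read 10.18 to 10.64 in WT and 10.44, 11.22, 12.47, 12.2 and 12.41 in WTC, with 1 WTC mouse inside the WT range and a ratio of 0.96 ± 0.38, or 0.42 on slide 1 alone.

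Col2a1, best known as the collagen of cartilage, showed a difference of like size, at 7.36 to 7.82 in WT and 9.2 to 10.17 in WTC, with a ratio of 1.4 ± 0.44 (adjusted p = 0.14; channel fit 0.0012) and no overlap. Col11a1, which nucleates fibrils, had a smaller ratio of 0.43 ± 0.16, and Col5a1, the common chain of type V, one of 0.63 ± 0.24; both passed in the channel fit (adjusted p = 0.0095 and 0.021). Col5a2 had a ratio of 0.12 and was well above background in 2 of 6 WT and 3 of 5 WTC channels, so its level was poorly measured. Col24a1 and Col11a2 had the only negative ratios of the class.

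All 5 measured chains of the basement membrane network had positive ratios, with a median of 0.72. Col4a5 read 6.76 to 7.26 in WT and 7.66, 7.72, 7.82, 7.75 and 7.89 in WTC, so no mice overlapped and the WTC mice were close together. Its ratio was 0.79 ± 0.15 (adjusted p = 0.095; channel fit 0.00015). Col4a6, which pairs with Col4a5 in one form of the network and lies beside it on chromosome X, read 6.56 to 6.81 in WT and 7.79 to 8.82 in WTC. Its ratio was 1.27 ± 0.27 (adjusted p = 0.095; channel fit 0.00017), but a second, equally bright Col4a6 probe gave -0.12 ± 0.08, so the probes disagree. Col4a1, the major chain of vessel basement membranes, read 8.75, 8.62, 8.63, 9.12, 8.63 and 8.8 in WT and 9.67, 9.67, 9.84, 10.43 and 10.15 in WTC. The groups did not overlap, and the ratio was 0.72 ± 0.41 (adjusted p = 0.37; channel fit 0.019). Col4a2, its head-to-head neighbour, read 9.07 to 9.41 in 5 WT mice but 11.27 in WT156, and 9.64 to 10.26 in WTC. The mouse on the same array as WT156, T133, was also high, at 10.91, against 8.87 to 9.43 in the other T mice. Both mice of that array were high together, and the ratio of Col4a2 over all arrays was 0.35 ± 0.26. Col4a4 had a ratio of 0.49 ± 0.15 and passed in the channel fit (adjusted p = 0.0053).

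Other classes were mixed. Among fibril-associated collagens Col16a1 (0.92 ± 0.36) and Col20a1 (0.46 ± 0.17) passed in the channel fit (adjusted p = 0.0045 and 0.0073). Both were higher in every WTC than in every WT mouse. Dimmer probes of Col16a1 gave smaller ratios, 0.57 ± 0.3 and 0.13 ± 0.08, and a second Col20a1 probe gave 0.75 ± 0.21. Col18a1 had a ratio of 0.9 ± 0.31 (adjusted p = 0.17; channel fit 0.021), or 0.39 on slide 1 alone. Of the beaded filament chains, Col6a5 passed in the channel fit (adjusted p = 0.027), although it was well above background in 2 of 6 WT and 3 of 5 WTC channels, while Col6a1, Col6a2 and Col6a4 had ratios of -0.28 ± 0.33, 0.02 ± 0.19 and -0.19 ± 0.2. Col26a1 was the 1 member called lower in the channel fit, with a ratio in that fit of -0.69 ± 0.2 (adjusted p = 0.02). The fold of Col8a2 was the largest of all members, 4.35 (log2 ratio 2.12 ± 0.93), and its error was also the largest. A second, dimmer Col8a2 probe gave 0.42 ± 0.2. All 6 choroid plexus markers had positive ratios in the same comparison, with a median of 2.28 and 3 of them at an unadjusted p under 0.05, and their part in the ratio of Col8a2 was not tested.

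**Figure D2:**
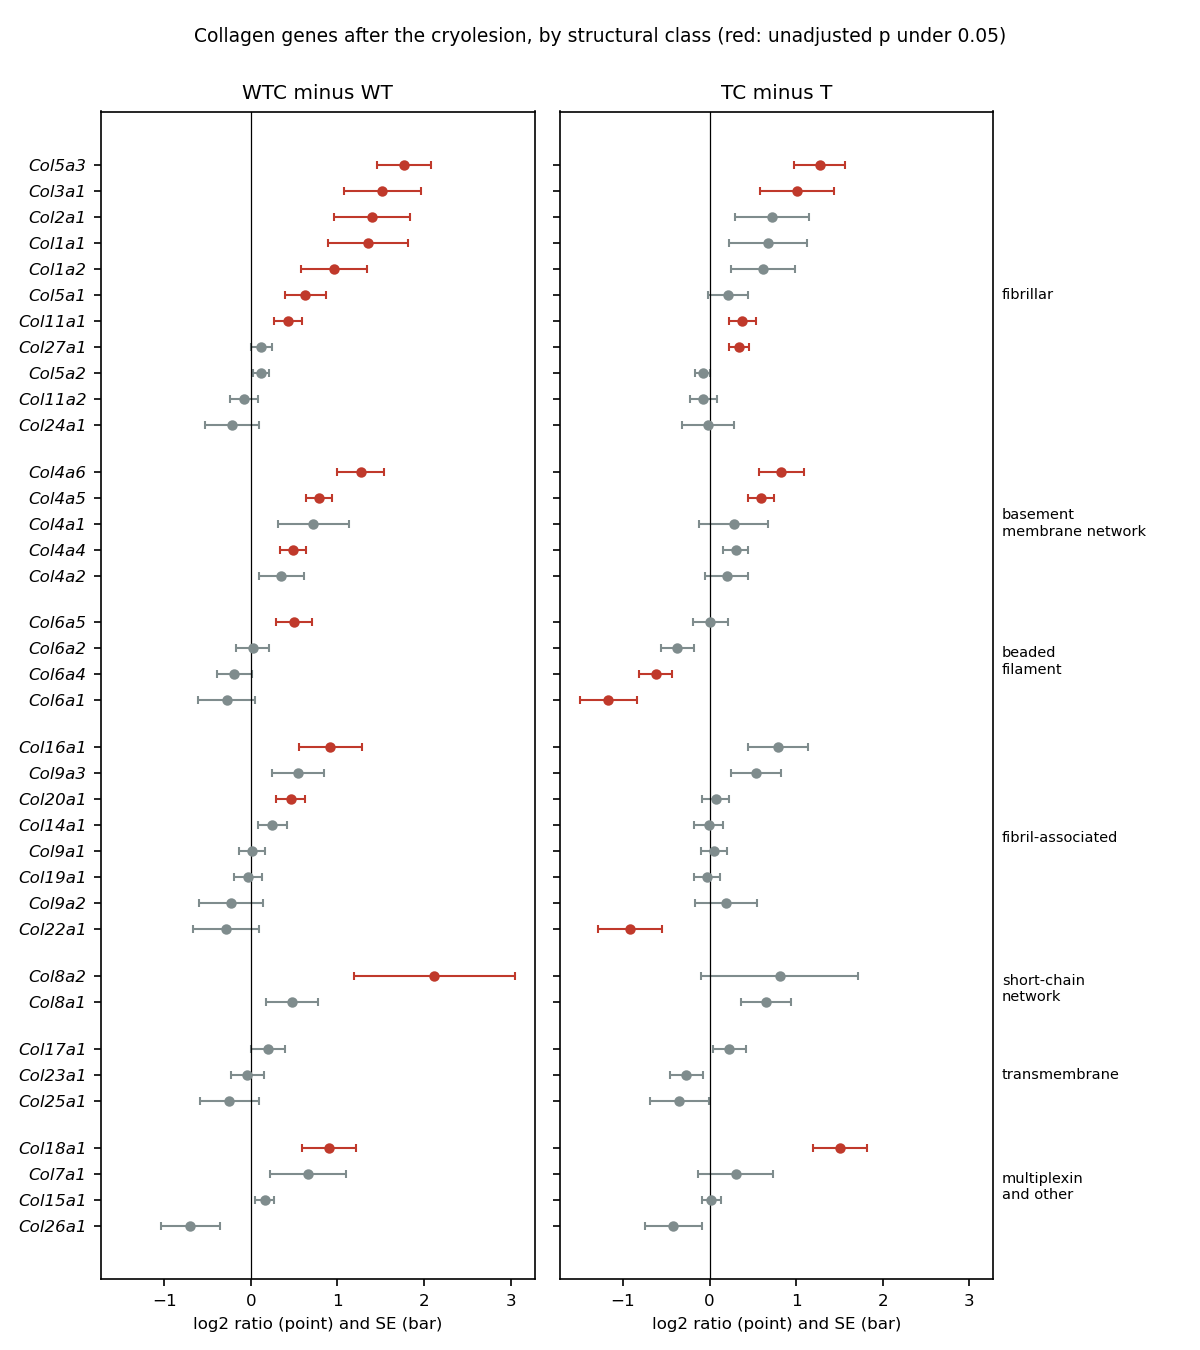
Log2 ratio (horizontal axis, point) with SE (bar) of the 37 collagen genes for WTC minus WT and for TC minus T in the ratio fit, grouped by structural class and ordered by the first ratio. Points in red have an unadjusted p under 0.05, 15 of 37 on the left and 10 of 37 on the right, and none passes after adjustment.

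In transgenic mice the channel fit called 3 of 11 fibrillar and 2 of 5 basement membrane network collagens higher after the lesion, besides Col16a1 and Col18a1, and the ratio fit none. The median log2 ratio of TC over T was 0.21, with 25 of 37 positive, against 0 over all features. The ratio fit called 0 members at an adjusted p under 0.05, where 0% of features were called in each direction, and at an unadjusted p under 0.05 it gave 7 higher and 3 lower members, against 6.95% and 4.97% of features. The channel fit called 7 members higher and 0 lower, against 4.68% and 2.61% of features: Col3a1, Col4a5, Col4a6, Col5a3, Col11a1, Col16a1 and Col18a1. Without TC113 it called 12 higher, against 7.94% of features. In 6 members every TC mouse was above every T mouse, against 2.06% of features, and in 1, Col22a1, every TC mouse was below, against 2.86%; without TC113 8 members were above, against 6.96%. The authors' deposited table gave an adjusted p under 0.05 to 7 higher and 0 lower members, against 2.41% and 0.504% of the same features.

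Col18a1 had the largest ratio, at 8.56, 7.2, 7.88, 7.78 and 8.34 in the T mice and 9.2, 9.04, 10.1, 9.01, 9.24 and 8.92 in the TC mice. No mice overlapped, and the highest value was that of TC113. The ratio was 1.51 ± 0.31 (adjusted p = 0.23; channel fit 0.0044, and 0.0035 without TC113), and a second probe gave 1.25. Col5a3 read 7.42 to 8.2 in T and 8.95, 9.55, 8.7, 9.9, 10.25 and 8.4 in TC. The ratio was 1.27 ± 0.3 (adjusted p = 0.27; channel fit 0.0058). Col3a1 read 6.51 to 7.24 in T and split among the TC mice, at 7.81, 7.86 and 7.98 in 3 of them and 9.22, 9.29 and 9.77 in the others, all above the T mice; its ratio was 1.01 ± 0.43 (channel fit, adjusted p = 0.018). Col4a5 had a ratio of 0.6 ± 0.15 (adjusted p = 0.27; channel fit 0.0025) and Col4a6 one of 0.83 ± 0.26 (channel fit 0.0062), while the second Col4a6 probe gave -0.21 ± 0.07. For Col16a1 the probe used gave 0.79 and its dimmer probes gave 0.47 ± 0.29 and 0.06 ± 0.07. Of the 3 arrays with contradicting labels, 2 are the only arrays that pair TC with T mice. With groups from the channel 2 labels the ratio of Col18a1 was 0.59, that of Col5a3 0.65 and that of Col4a5 0.27. That of Col4a6 was 0.05 and that of Col3a1 0.02. The astrocyte marker Gfap read 12.74 in T132, against 11.97 to 12.72 in the other T mice. It read 14.62 in TC124 and 13.96 in TC113, against 14.37 to 15.69 in the other TC mice. By Gfap these mice lay nearer to the group of their title. The macrophage marker Lyz2 read 6.96 in T132 and 11.1 in TC124, but 7.58 in TC113, within the 6.89 to 7.63 of the T mice.

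Col1a1 and Col4a1 were less uniform in TC mice. Col1a1 read 7.54 to 9.09 in T and 8.55, 9.68, 8.93, 10.23, 10.51 and 8.67 in TC, so the groups overlapped, and its ratio was 0.68 ± 0.45 (adjusted p = 0.58; channel fit 0.083). With groups from the channel 2 labels the ratio turned to -0.3 for Col1a1 and to -0.21 for Col4a1. Col4a1 read 8.44 to 9 in T and 8.93 to 10.7 in 5 TC mice, but 8.19 in TC113, the lowest of all 22 mice. Its ratio was 0.28 ± 0.4, and in the channel fit its adjusted p was 0.22 with TC113 and 0.017 without it. Macrophage markers averaged 6.93 in TC113, near the 6.6 to 7.26 of the T mice, and 8.35 in the median TC mouse. Astrocyte markers averaged 13.51 in TC113, above the 11.92 to 12.47 of the T mice. The other TC mice had 13.92 to 14.71. The part of both lists in these differences was not tested. Of the 12 members with a negative ratio, the 3 with an unadjusted p under 0.05 were Col6a1 (-1.17 ± 0.33), Col6a4 (-0.62 ± 0.19) and Col22a1 (-0.92 ± 0.37), whose adjusted p in the ratio fit were 0.29, 0.31 and 0.39 and in the channel fit 0.54, 0.091 and 0.077. With the channel 2 labels that of Col22a1 turned to 0.04.

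Between uninjured genotypes no collagen passed a test. The median log2 ratio of T over WT was -0.04, with 15 of 37 positive. No member was called in the ratio fit or in the channel fit, where 0% of all features were called in each direction. At an unadjusted p under 0.05 the ratio fit gave 0 members higher and 1 lower, Col27a1 (-0.28 ± 0.11), against 1% and 1.93% of features. Col1a1, Col3a1 and Col4a1 had ratios of 0.12 ± 0.41, 0.04 ± 0.4 and 0.3 ± 0.37, and those of Col1a1 and Col3a1 turned negative in the channel fit, at -0.03 and -0.07. The next smallest p-values were those of Col18a1 (-0.6 ± 0.28) and Col22a1 (0.62 ± 0.34), both with an adjusted p of 0.98.

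Between lesioned genotypes 35 of 37 members had a negative log2 ratio of TC over WTC in the ratio fit and 31 of 37 in the channel fit. In the ratio fit the median was -0.19 and the range -1.72 to 0.07, while 14451 of all 25998 features were lower, with a median of -0.02. No member passed. The ratio fit called 0, against 0% of features in each direction, and the channel fit called 0, against 0.108% higher and 0.0231% lower. At an unadjusted p under 0.05 the ratio fit gave 0 higher and 3 lower members, against 6.1% and 8.66% of features. The direction was not shared by the slides. Fitted on slide 2 alone, with 3 WTC and 5 TC mice, 32 of 37 members were lower (median -0.27). On slide 1 alone, with 2 WTC mice and 1 TC mouse, 16 of 37 were lower (median 0.05). That TC mouse, TC122, shared its array with a WT mouse. Only members were read in these slide fits, so the share of all features that were lower is not known here. Col1a1 had a ratio of -1.07 on slide 2 and 1.05 on slide 1, and Col3a1 one of -0.92 and 0.83.

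The authors' deposited table gave another picture for this comparison. It listed 8 members lower in TC than in WTC at an adjusted p under 0.05 and 0 higher, against 6.17% and 10.3% of the same features. These were Col15a1, Col16a1, Col1a1, Col1a2, Col2a1, Col3a1, Col4a6 and Col6a5. In the authors' deposited table Col1a1 had a log2 ratio of -1.17 (adjusted p = 0.0378), Col3a1 -1.15 (0.0455) and Col2a1 -1.58 (0.00592). In the ratio fit these were -0.56 ± 0.41, -0.47 ± 0.39 and -0.68 ± 0.38, and the adjusted p of Col1a1 was 0.55 and that of Col3a1 0.61. Over all features, ratios of the table and of the ratio fit had a Pearson correlation of 0.87 for this comparison, as a description across features.

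The 3 members with an unadjusted p under 0.05 were all of the beaded filament class, which anchors cells to the matrix. At 8.11% of members, they were no more frequent than such features were among all features, 8.66%. Col6a1 read 8.3, 10.78, 12.16, 10.89 and 11.16 in WTC and 9.88, 10.78, 8.95, 11.12, 11.4 and 9.15 in TC, so the TC range lay within the WTC range. Its ratio was -0.95 ± 0.29 (adjusted p = 0.22), that of Col6a4 -0.58 ± 0.17 (0.22) and that of Col6a2 -0.41 ± 0.17 (0.31). In the channel fit their adjusted p were 0.52, 0.26 and 0.64. All 7 striatal markers were lower in TC than in WTC in the ratio fit, with a median of -1.91, and their part in these differences was not tested. Col8a2, with -1.72, had the largest negative ratio, and its second, dimmer probe gave -0.25 ± 0.17. All 6 choroid plexus markers were lower as well, with a median of -2.18.

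**Figure D3:**
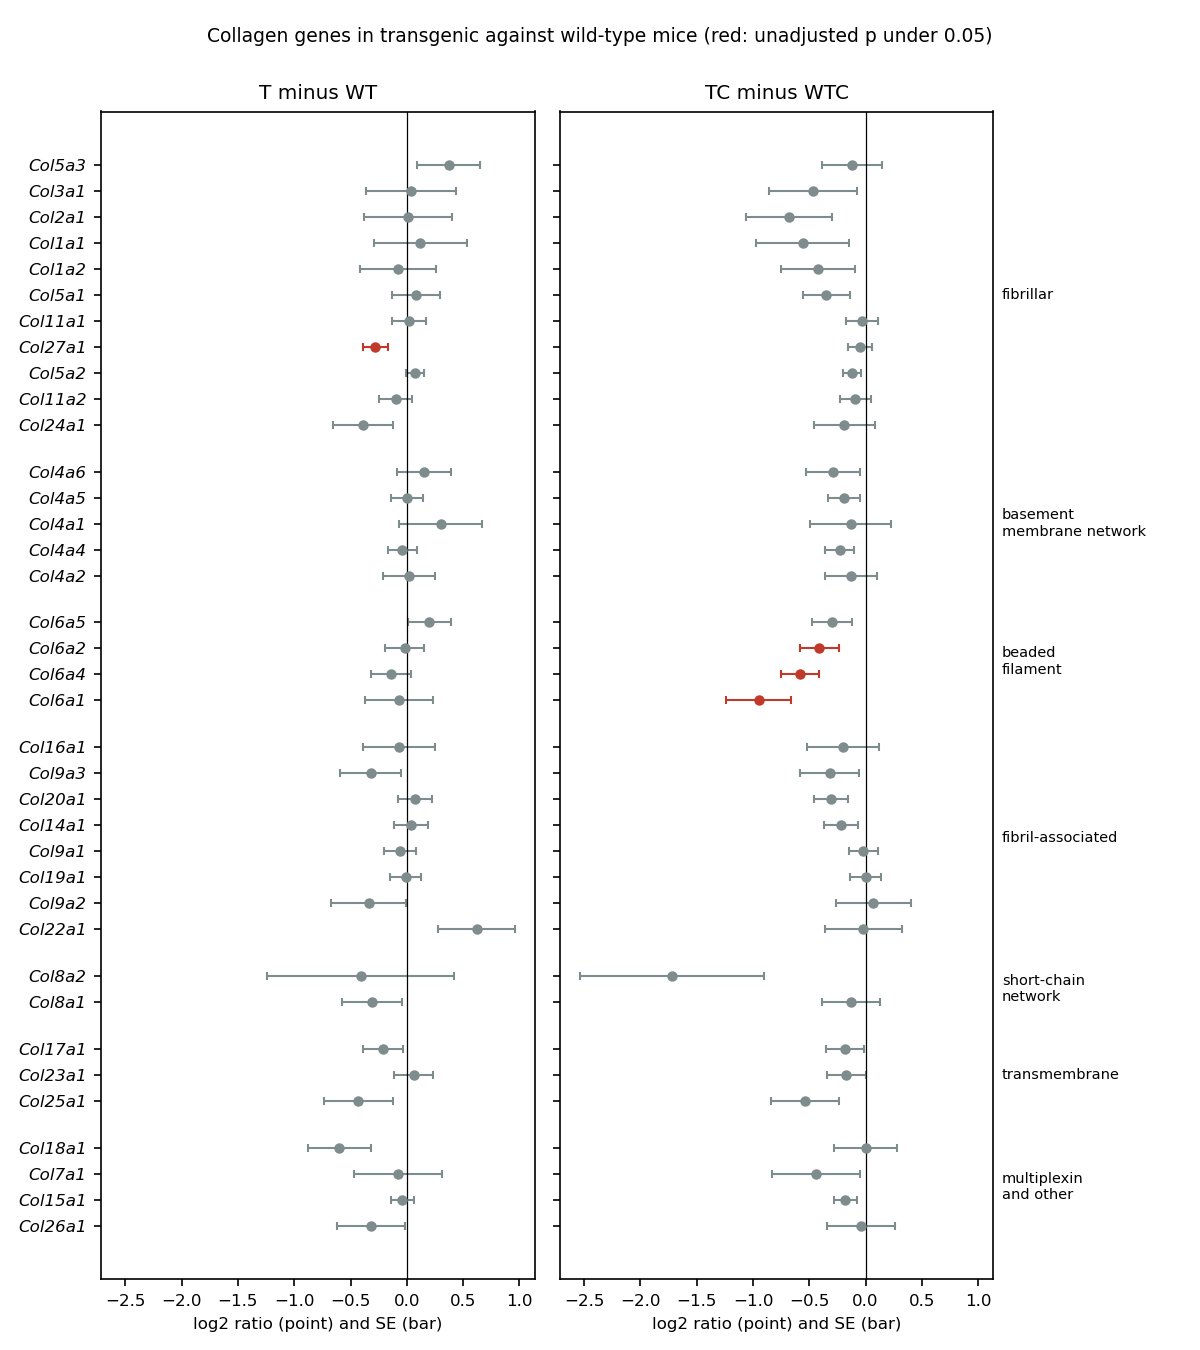
Log2 ratio (horizontal axis, point) with SE (bar) of the 37 collagen genes for T minus WT and for TC minus WTC in the ratio fit, in the order of the lesion plot. On the right 35 of 37 points lie below 0, and the 3 red points, with an unadjusted p under 0.05, are Col6a1, Col6a2 and Col6a4. These are 8.11% of members, against 8.66% of all features.

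Whether the lesion acted differently in the genotypes is the difference between TC minus T and WTC minus WT. No member was called in it, where 0% of features were called in each direction, and at an unadjusted p under 0.05 the ratio fit gave 0 members higher and 1 lower, against 2.9% and 2.43% of features. That member was Col6a1 (-0.88 ± 0.38, adjusted p = 0.81). The median over members was -0.19, and Col1a1, Col3a1 and Col4a1 had -0.67 ± 0.52, -0.51 ± 0.5 and -0.43 ± 0.47, each less than 2 SE from 0.

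Levels of some members were set beside markers of tissue next to the cortex. These pairs of genes and lists were chosen after the pattern was seen. So 14 correlations, and those within subsets of the mice, are given as descriptions with no test, and the mice share arrays in pairs. For Col8a2, a short-chain collagen of Descemet's membrane, and the choroid plexus list r was 0.92 (rho = 0.83) in the 11 intact mice and 0.94 (rho = 0.93) in the 11 lesioned mice. Without the 2 mice farthest from the list's median r was 0.65 and 0.91. Col8a2 read 10.35 in WT142, while the other WT mice had 7.01 to 8.33, and WT142 had the highest choroid plexus level of the 22 mice, 14.09. Col8a1 gave r = 0.84 in intact mice (rho = 0.53; r = 0.58 without the 2 mice) and 0.78 in lesioned mice (rho = 0.78; r = 0.74). Col9a3, a chain of the fibril-associated type IX, gave r = 0.93 in lesioned mice (rho = 0.95; r = 0.93 without the 2 mice). In intact mice its r of 0.87 (rho = 0.47) rested on WT142 and WT156, without which it was 0.03. Within 1 slide, r in the 9 intact mice of slide 1 was 0.95 for Col8a2, 0.86 for Col8a1 and 0.91 for Col9a3. Those 9 mice include WT142 and WT156. In the 8 lesioned mice of slide 2 r was 0.93, 0.81 and 0.91, and the other slide held too few mice. Within genotypes, r for Col8a2, Col8a1 and Col9a3 was 0.98, 0.88 and 0.93 in intact wild-type mice. In intact transgenic mice it was 0.72, 0.43 and 0.08. In lesioned mice it was 0.96, 0.94 and 0.88 in wild type and 0.91, 0.95 and 0.98 in transgenic mice.

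The 4 beaded filament chains were set beside the striatal list. In intact mice r was 0.93 for Col6a1 (rho = 0.8), 0.88 for Col6a2 (rho = 0.81), 0.91 for Col6a4 (rho = 0.64) and 0.58 for the dim Col6a5 (rho = 0.52). The 2 mice farthest from the list's median were WT111 and T115, which were lowest within their groups in the list and in Col6a1, Col6a2 and Col6a4. Without them r was 0.75, 0.79, 0.51 and, for Col6a5, 0.14. In lesioned mice r was 0.35 for Col6a1, 0.45 for Col6a2, 0.45 for Col6a4 and 0.08 for Col6a5. Within slide 1, r for Col6a1, Col6a2, Col6a4 and Col6a5 was 0.95, 0.89, 0.93 and 0.59 in the 9 intact mice, WT111 and T115 among them. In the 8 lesioned mice of slide 2 it was 0.17, 0.32, 0.35 and 0.08. Within genotypes, r for the same chains was 0.97, 0.98, 0.92 and 0.92 in intact wild-type mice. In intact transgenic mice it was 0.93, 0.88, 0.96 and 0.58. Lesioned wild-type mice gave 0.53, 0.65, 0.39 and -0.44, and lesioned transgenic mice -0.11, 0.15, 0.04 and -0.01. Whether these values differ between intact and lesioned mice was not tested.

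**Figure D4:**
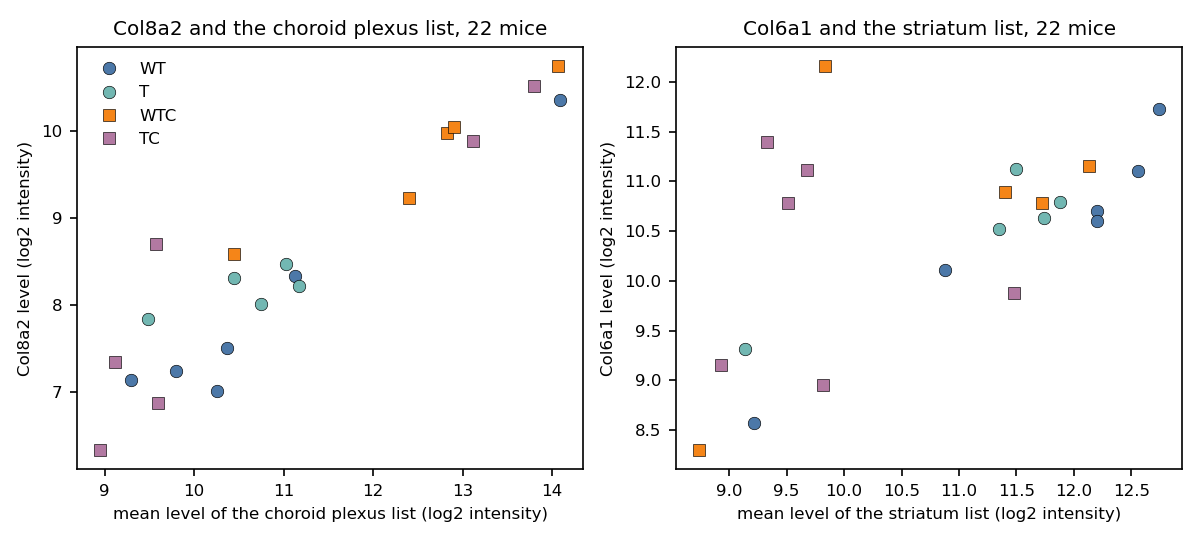
Level of Col8a2 against the mean level of 6 choroid plexus markers (left) and of Col6a1 against that of 7 striatal markers (right), both axes in log2 intensity, for 22 mice; circles are intact and squares lesioned mice, coloured by group. For Col8a2 r was 0.92 in intact and 0.94 in lesioned mice, and for Col6a1 it was 0.93 and 0.35.

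Other genes of the pathway were read from lists. Of 30 genes for synthesis and crosslinking 28 were measured; 22 had a positive WTC over WT ratio (median 0.38), 13 were higher and 0 lower at an unadjusted p under 0.05 in the ratio fit, against 12.6% and 6.91% of all features, and the channel fit called 16 higher and 0 lower, against 14.2% and 12.3%. Serpinh1, the collagen chaperone of the endoplasmic reticulum, had a ratio of 1.36 ± 0.38 (channel fit, adjusted p = 0.0013), and the prolyl isomerase Fkbp10 one of 0.96 ± 0.23 (0.00045). Ppib, the isomerase cyclophilin B, had 0.67 ± 0.15 (0.00031) and Loxl3, of the lysyl oxidase family that crosslinks chains, 0.55 ± 0.13 (0.0029). None passed in the ratio fit, where their adjusted p ran from 0.096 to 0.12. In transgenic mice the channel fit called 8 of the 28 higher and 1 lower, against 4.68% and 2.61% of all features.

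Of 10 collagen receptors 7 were measured, and all had positive ratios in the ratio fit (median 0.8). By level, however, Itga11 averaged 8.47 ± 0.15 (SD, n = 6) in WT and 8.21 ± 0.56 (SD, n = 5) in WTC. The channel fit called 6 receptors higher, where 14.2% of all features were called higher, as for the lists that follow. The receptor kinases Ddr2 (1.09 ± 0.25) and Ddr1 (0.97 ± 0.26), the inhibitory leukocyte receptor Lair1 (0.87 ± 0.26) and the endocytic receptor Mrc2 (0.37 ± 0.14) had the smallest p-values. Of 13 partners of type IV in the basement membrane the channel fit called 6 higher, with ratios of 1.01 ± 0.34 for Nid2 and 0.77 ± 0.27 for Nid1, the linkers of laminin and collagen, and 0.54 ± 0.19 for the laminin chain Lamb2. Sparc, a matrix protein that binds collagen, had 0.92 ± 0.41 and did not pass in either fit (channel fit, adjusted p = 0.19). Of 6 genes for collagen breakdown 5 were measured and 3 were called in the channel fit. One of these, the collagenase Mmp8, was well above background in 0 of 6 WT and 0 of 5 T channels but in 5 of 5 WTC and 3 of 6 TC channels, so it was measured only through the lesioned groups and its call carries no weight. The others were the membrane protease Mmp14 (0.87 ± 0.2; channel fit, adjusted p = 0.00044) and the gelatinase Mmp2 (0.69 ± 0.21; 0.0026). The corresponding ratios of TC over T were 0.57 ± 0.19 for Mmp14 and 0.67 ± 0.2 for Mmp2, and 1.58 ± 0.4 for Sparc.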

How the data were processed

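Per the labels, RNA of 22 mice was hybridised to 11 two-colour Agilent arrays, titles giving the group of each channel. The authors deposited median spot and local background intensity on a linear scale; the file headers name Feature Extraction 10.7.3.1 as the Agilent scanner software. Its deposited log10 ratio of processed signals was used as an alternative only. The authors' deposited table of log2 ratios (base not stated) and adjusted p-value columns, made with limma per the submitters' processing notes, was read for comparison; its adjusted p-values for WTC minus WT include cells above 1 and were not read. Median signals were background-corrected (normexp, offset 50) and loess-normalised within arrays with limma 3.58.1 in R 4.3.3. Control spots were left out. Levels per mouse were taken after quantile normalisation of mean intensities between arrays, with the dye effect removed. Probes flagged well above background in 5 or more of 22 channels gave 25998 features, named through RefSeq accessions (16033 with a symbol), each by its brightest probe.

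The ratio fit (the main result; lmFit and eBayes with a dye term, 7 residual degrees of freedom) and the channel fit (within-array correlation 0.294, 17 residual degrees of freedom) covered all features; p-values were adjusted by Benjamini and Hochberg's method and read at 0.05. Both were run on simulated data with known changes. That simulation held no slide effect and no outlying mouse, so it cannot decide between the fits where they differ. Each channel holds 1 mouse per the labels, and the p-values refer to the spread between mice; the series' design text speaks of several hybridisations of each sample, of which 1 per mouse was analysed here. The number of arrays limits the precision. The members and gene lists were chosen with earlier results of these data known. Genes named were Col1a1, Col3a1, Col4a1 and a set of major chains, the 5 members with the smallest p in each direction per contrast, the members just inside and outside the detection rule, and up to 4 genes per further list. Alternatives changed background correction, normalisation, filter, probe choice, dye term, weights, slide block, channel model, the groups of the 3 arrays with contradicting labels and single arrays; a channel fit with a slide term was added after seeing the data. No replicate block was used, since replicate numbers pair no mice here.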

Additional observations from a re-analysis of the deposited data

Results flagged for a closer look

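In 15 of 148 groups of mice (37 members in 4 groups) the highest or lowest mouse stood apart from the others by Dixon's criterion, where chance flags about 1 in 20, or 7.4 groups. Values are log2 levels, and no explanation was weighed.

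In WT142, which had the highest choroid plexus markers of all mice, Col8a1 was at 7.5 (next WT mouse 6.47), Col9a3 at 7.97 (next 6.96) and Col17a1, a transmembrane collagen, at 6.82 (next 6.33). In WT111, which had the lowest striatal markers of the WT mice and the lowest excitatory neuron markers (9.59) of all intact mice, Col6a4 was at 5.97 (next 6.85) and Col19a1 at 6.02 (next 6.64), while Col9a2 was at 10.28 (next 9.73). Col9a2 was also highest in T115, at 9.89 (next 9.61), the T mouse with the lowest striatal markers. Col6a2 was at 6.73 in WTC116 (next 7.87), the WTC mouse with the lowest striatal markers. The part of the markers in these values was not tested.

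Col4a2 was at 11.27 in WT156 (next 9.41) and at 10.91 in T133 (next 9.43), which shared an array. Col18a1 was at 10.1 in TC113 (next 9.24), whose excitatory neuron markers were lowest. Col22a1 was highest in WT141, at 8.54 (next 7.85), and in T151, at 8.46 (next 8.18). Col11a1 was at 6.36 in WT141 (next 6.66) and Col4a1 at 9.12 in WT144 (next 8.8).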

How the results depend on the processing

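Between 56.6% and 65.3% of probes were well above background, and Col5a2, Col6a5, Col8a1, Col15a1 and Col17a1 were so in only some mice of each group, which limits their values. For WTC minus WT the ratio fit called 0 members. Array weights gave 21 (38.3% of all features called), the separate-channel fit 16 (26.4%), the channel fit 16 (26.5%), the channel fit without TC113 17 (32.1%), the channel fit with a slide term, chosen after seeing the data, 12 (13.1%), and the ratio fit without the 3 arrays with contradicting labels 4 (6.7%). Leaving out each array gave 0 to 4, with 4 without the array of T151 and TC113 (5.51%) and 4 without that of WTC126 and TC124 (5.99%). The median ratio of 0.43 became 0.67 with Agilent's processed ratios and 0.23 with no filter on dim probes (0.22 to 0.49 with each array left out). For TC minus T the count of 0 became 8 with array weights (7.13%), 7 in the separate-channel fit (7.39%), 7 in the channel fit (7.3%), 12 without TC113 (12.4%) and 6 with the slide term (3.44%). For T minus WT and TC minus WTC the count was 0 under every alternative run, with at most 0.354% of all features called. With Agilent's processed ratios the median for TC minus WTC moved from -0.19 to -0.43 and that of the difference between lesion effects from -0.19 to -0.39. The cause was not tested.

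Of the genes named, 20 for WTC minus WT gave 519 values under alternatives, of which 13 reversed; for TC minus T 14 values of 19 genes reversed, for T minus WT 18 of 310, for TC minus WTC 18 of 260, and for the difference between lesion effects 0 of 77. In WTC minus WT, Col6a2 became -0.08 with Agilent's ratios, -0.13 with median centring and -0.04 with the slide term; Col6a4 became 0.04 with Agilent's ratios; Col6a1 became 0.09 in the separate-channel fit, 0.1 in the channel fit and 0.19 without TC113; and Col22a1 became 0.03 with groups from the channel 2 labels. In TC minus T, Col15a1 became -0.01 with median centring, -0.23 with the channel 2 labels and -0.14 without the 3 arrays. With the channel 2 labels Col1a1 became -0.3, Col4a1 -0.21, Col4a2 -0.13, Col5a1 -0.02, Col22a1 0.04 and Col23a1 0.03. In T minus WT, Col3a1 became -0.03 with Agilent's ratios, -0.07 with no dye term, -0.04 with array weights, -0.07 in the separate-channel and channel fits, -0.09 without TC113 and -0.19 with the slide term; Col1a1 became -0.03 in the separate-channel and channel fits, -0.04 without TC113 and -0.07 with the slide term. In TC minus WTC, Col4a1 became 0.05 with median centring; Col18a1 became -0.13 with the mean of its probes, -0.02 with slide as a random block and in the channel fit without TC113, -0.08 with the channel 2 labels and -0.15 without the 3 arrays; and Col9a2 became -0.02 with the channel 2 labels.

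With each array left out in turn, WTC minus WT ran from -0.13 to 0.13 for Col6a2, -0.49 to 0.11 for Col24a1 and -0.03 to 0.7 for Col8a1. TC minus T ran from -0.01 to 0.06 for Col15a1 and -0.06 to 0.81 for Col4a1. T minus WT ran from -0.11 to 0.27 for Col1a1, -0.1 to 0.26 for Col3a1 and -0.02 to 0.12 for Col5a2. TC minus WTC ran from -0.18 to 0.26 for Col18a1, -0.16 to 0.32 for Col9a2, -0.79 to 0.17 for Col3a1 and -0.48 to 0.42 for Col4a1, the last pair turning positive without the array of TC129 and WTC135.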
